A study of Mus musculus with 9 samples.

Results

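The Hox genes encode homeodomain transcription factors and lie in 4 clusters, on mouse chromosomes 6 (Hoxa), 11 (Hoxb), 15 (Hoxc) and 2 (Hoxd). Protein-coding Hox genes were taken from the 56748 genes of the deposited table by their symbol, Hox followed by a cluster letter a to d and a number. The rule found 39 genes, of which 38 are described. They were measured by RNA sequencing in wild-type primary airway basal stem cells of the mouse trachea, the progenitors at the base of the tracheal lining. Cells were grown at an air-liquid interface, on a membrane with medium below and air above, which lets them build a layered epithelium. Libraries from days 1, 3 and 5 of that culture, 3 a day, stand for proliferation, stratification and the start of luminal cell fates in the series' design. Day 1 is the earliest time point analysed here and serves as the reference. No label names the age, sex or strain of the animals, or says if the replicates are separate cultures or animals. The p-values thus reflect the spread among these 9 libraries alone, and that spread may be technical.

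Within a cluster, genes near the 3' end carry low paralog numbers and are used in anterior parts of the embryo, while genes near the 5' end carry high numbers and are used in posterior parts. Genes with the same number in different clusters are paralogs with closely similar homeodomains. Hox proteins bind DNA with partners of the TALE class (Pbx, Meis and Pknox proteins), retinoic acid is a known inducer of the 3' genes, and Polycomb and trithorax complexes keep the clusters silent or active. Among them Hoxa5 is known for a role in the development of the trachea and lung.

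Reads assigned to genes ranged from 26474958 to 35057540 a library on day 1, from 19493683 to 24557054 on day 3 and from 16360413 to 19270456 on day 5. Values below are normalized counts, that is reads divided by 1 size factor per library, in which 1 read was worth 0.61 to 1.34. Epithelial markers were all detected (10 of 10). Their summed level ranged from 193660 to 212437 on day 1, 166365 to 174578 on day 3 and 89669 to 110017 on day 5. Most of the day 1 sum was Krt5 (means 108199, 82486 and 38922.5 on days 1, 3 and 5) and Krt14 (38820, 9822 and 11899). By the test described below, Elf3, Epcam, Nkx2-1 and Sox2 rose from day 1 to day 5, and Cdh1, Krt5, Krt14 and Trp63 fell. That is 4 of 10 each way, beside 36.7% and 37.7% of all genes tested. Transcripts of 4 Y-linked genes summed to 3027 to 3253 on day 1, 299.9 to 348 on day 3 and 401 to 575 on day 5, while Xist, which is expressed from an inactive X chromosome, ranged from 1548 to 2018, from 5416 to 6346 and from 6116 to 8698. The day 1 libraries thus carried another balance of male-linked and female-linked RNA than the later ones. Whatever that balance stands for and the day of culture cannot be told apart in any comparison with day 1. The Y-linked sums of days 3 and 5 did not overlap either. From day 3 to day 5, Kdm5d rose by 1.69 and Uty by 1.12, while Ddx3y, Eif2s3y and Xist did not pass. That is 2 of 5 up and 0 down, beside 34.8% and 32.4% of all genes tested. The comparison of days 3 and 5 is thus not free of such a difference.

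Of the 38 Hox genes, 11 were detected, meaning 10 or more normalized counts in at least 3 libraries. That is 28.9% of the Hox genes, beside 30.6% of all genes in the table. The Hoxa cluster had 5 of 10 members detected (Hoxa2, Hoxa3, Hoxa4, Hoxa5 and Hoxa7), the Hoxb cluster 5 of 10 (Hoxb2, Hoxb3, Hoxb4, Hoxb5 and Hoxb6), the Hoxc cluster 1 of 9 (Hoxc4) and the Hoxd cluster 0 of 9. By position, 4 of the 7 anterior genes (paralog groups 1 to 3), 7 of the 15 central genes (groups 4 to 8) and 0 of the 16 posterior genes (groups 9 to 13) were detected. The 16 posterior genes together had 7 reads in all 9 libraries, and the highest value of any of them was 1.29. In these cultures, Hox RNA thus came from the 3' and middle parts of the Hoxa and Hoxb clusters and from Hoxc4.

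**Figure D1:**
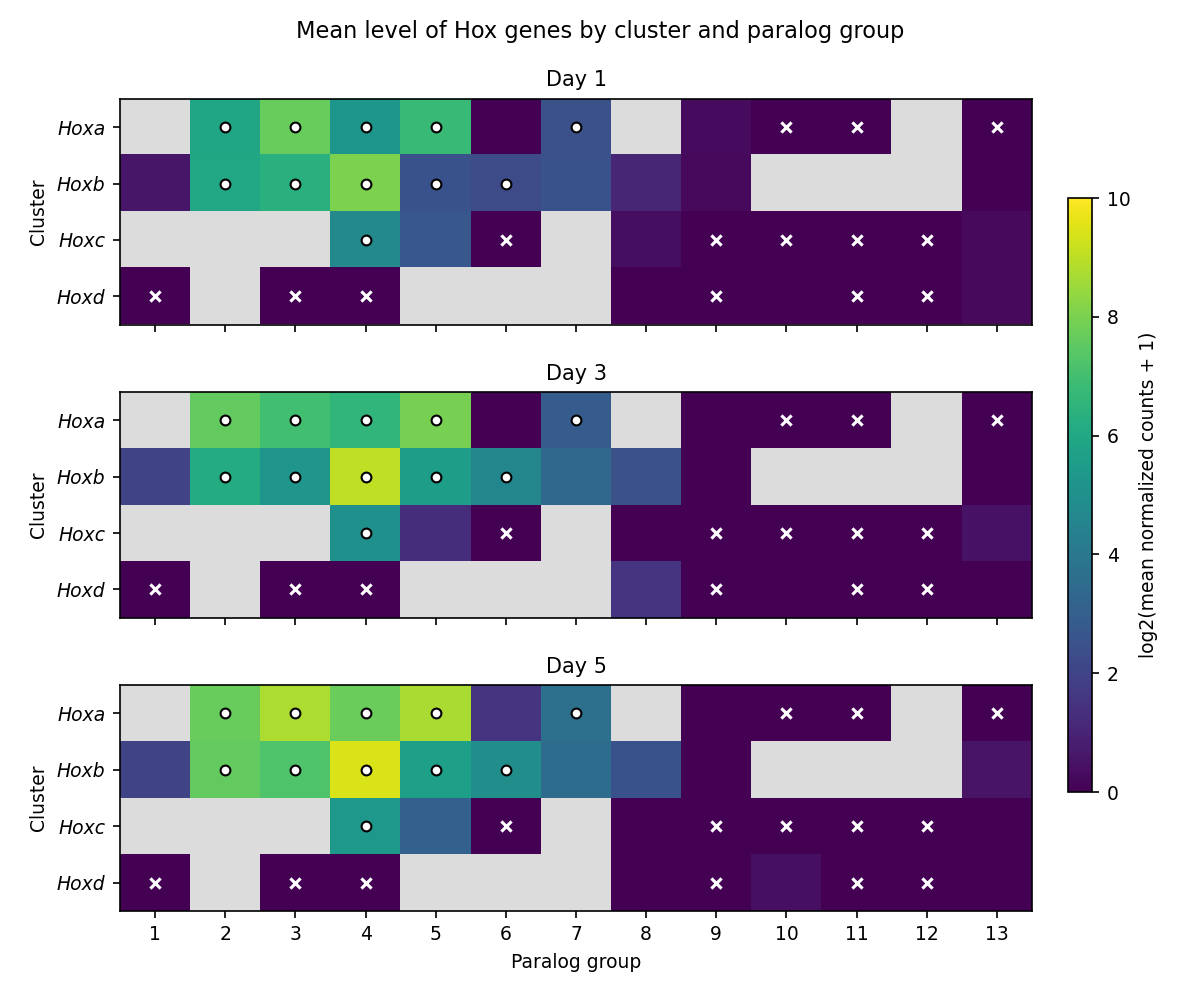
Mean level of each Hox gene on days 1, 3 and 5, as log2(mean normalized counts + 1) in colour, by cluster (rows) and paralog group (columns). White dots mark the 11 detected genes, crosses the 14 genes with no read in any library, and grey squares positions with no gene shown. All dots lie in paralog groups 2 to 7.

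No read was assigned to 14 Hox genes in any library: 3 of the Hoxa cluster (Hoxa10, Hoxa11 and Hoxa13), 5 of the Hoxc cluster (Hoxc6, Hoxc9, Hoxc10, Hoxc11 and Hoxc12) and 6 of the Hoxd cluster (Hoxd1, Hoxd3, Hoxd4, Hoxd9, Hoxd11 and Hoxd12). Over the 210675966 reads of all libraries, 0 reads allows up to 3 reads (counting error only). The other 13 genes below the detection rule shared 181 reads. The highest of them were Hoxb7 with 68 reads, Hoxc5 with 47 and Hoxb8 with 30. Hoxb7 missed the rule narrowly, with 0, 12.5 and 1.82 on day 1, 8.74, 9.37 and 8.88 on day 3 and 8.92, 15.5 and 7.38 on day 5. Hoxc5 had 4.07, 6.64 and 6.06 on day 1, 2.50, 0 and 1.97 on day 3 and 6.94, 7.74 and 7.38 on day 5, and Hoxb8 stayed between 0 and 6.94. The remaining 10 had 18 reads (Hoxb1) or fewer each. These 27 genes entered no test. In the reference annotation (GENCODE M21, GRCm38) Hoxd3 and Hoxd4 share 62.3% and 52.3% of their exonic bases with each other and with Gm28230, so reads in the shared part belong to no single one of them.

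The homeoboxes of paralogs are alike enough that reads could in principle be assigned to the wrong member, so the GENCODE M21 transcripts of the 11 detected genes were compared. Over the whole homeobox of 180 bases, detected members of the same paralog group were 74.4% to 93.9% identical (median 82.5%, 6 pairs), and members of different groups 56.7% to 81.7% (median 72.2%, 49 pairs). Over whole transcripts, Hoxb4 was the only detected gene that shared any 50-base word with another Hox gene (3 words, with Hoxa6). The read length is not given in the sources used here.

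Promoter sequences of 22 Hox genes, 6 of them detected, were in the RefSeq table (GRCm38.p6, 250 bases before and 50 after the annotated start). Those of Hoxb4 and Hoxa5, the highest by mean level per length on every day, and of Hoxa2 and Hoxa3, which took different courses over the days, are printed 5' to 3' on the strand of the gene. They lie at chr11:96318017-96318316 on the plus strand (Hoxb4) and, on the minus strand, at chr6:52204538-52204837 (Hoxa5), chr6:52164782-52165081 (Hoxa2) and chr6:52213018-52213317 (Hoxa3). Capitals mark words found on either strand among 4 that were searched. These were the TATA-like word TATAAA, the word CCAAT found in many promoters, the retinoid receptor half-site AGGTCA, and the word TGATNNAT, which Pbx and Hox proteins bind together.
Hoxb4: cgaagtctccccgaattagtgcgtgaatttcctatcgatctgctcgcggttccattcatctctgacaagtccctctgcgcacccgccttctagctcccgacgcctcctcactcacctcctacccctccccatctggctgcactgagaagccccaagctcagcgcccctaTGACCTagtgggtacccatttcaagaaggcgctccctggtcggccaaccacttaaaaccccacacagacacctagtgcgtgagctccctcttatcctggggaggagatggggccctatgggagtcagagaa
Hoxa5: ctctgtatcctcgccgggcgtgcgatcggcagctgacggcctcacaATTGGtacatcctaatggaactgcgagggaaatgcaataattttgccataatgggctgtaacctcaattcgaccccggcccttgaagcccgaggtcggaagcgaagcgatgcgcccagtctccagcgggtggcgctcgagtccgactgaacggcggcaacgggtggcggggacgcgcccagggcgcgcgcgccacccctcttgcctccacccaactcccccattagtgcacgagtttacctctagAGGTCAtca
Hoxa2: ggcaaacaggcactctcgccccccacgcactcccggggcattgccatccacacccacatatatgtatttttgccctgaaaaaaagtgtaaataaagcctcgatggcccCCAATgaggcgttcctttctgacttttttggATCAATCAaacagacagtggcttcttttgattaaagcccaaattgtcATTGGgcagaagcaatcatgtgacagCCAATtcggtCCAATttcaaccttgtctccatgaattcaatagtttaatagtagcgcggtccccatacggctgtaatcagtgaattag
Hoxa3: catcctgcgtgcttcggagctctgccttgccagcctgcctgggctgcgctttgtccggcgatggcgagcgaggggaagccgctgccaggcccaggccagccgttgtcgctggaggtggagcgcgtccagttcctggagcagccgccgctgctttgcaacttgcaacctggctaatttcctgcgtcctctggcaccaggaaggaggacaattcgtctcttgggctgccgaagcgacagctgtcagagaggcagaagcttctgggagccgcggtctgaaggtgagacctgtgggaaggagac
The capitals in Hoxb4 are 1 AGGTCA on the reverse strand, those in Hoxa5 a CCAAT on the reverse strand and an AGGTCA, and those in Hoxa2 4 CCAAT words and 1 TGATNNAT, none overlapping another. The Hoxa3 window held none of the 4. It lies upstream of the Hoxa5 window, and the annotated Hoxa3 gene spans 44275 bases, with Hoxa4, Hoxa5 and Hoxa6 inside. Among the 6 promoters of detected genes, 3 held AGGTCA (Hoxa5, Hoxb4 and Hoxc4), 3 held CCAAT, 1 held TGATNNAT and 0 held TATAAA. Among the 18 promoters of Hox genes below the detection rule, 4 held AGGTCA, 12 CCAAT, 3 TGATNNAT and 4 TATAAA. Of all 32851 promoters in the table, 16.3% held AGGTCA, 37.4% CCAAT, 8.85% TGATNNAT and 13.6% TATAAA. A word is only a run of letters, and whether any protein binds there was not measured.

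Summed over the 38 genes, Hox RNA was lowest on day 1 and highest on day 5: 890.3, 747 and 953 normalized counts on day 1, 1425, 1336 and 1492 on day 3, and 2651, 2398 and 2315 on day 5. No library of one day overlapped those of another. The sum of the Hoxa members was 415 ± 38.2 (SD, n = 3), 669 ± 40.9 and 1273 ± 45.1 on days 1, 3 and 5, and that of the Hoxb members 418 ± 61.6, 713 ± 64.3 and 1134 ± 167. The Hoxc sum was 30.9 ± 5.89, 33.7 ± 12.1 and 46.9 ± 3.37, with overlapping libraries on days 1 and 3, and the Hoxd sum never exceeded 3.75. No test was made on these sums. In bulk samples such as these, fewer cells of a type and less RNA per cell cannot be told apart.

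**Figure D2:**
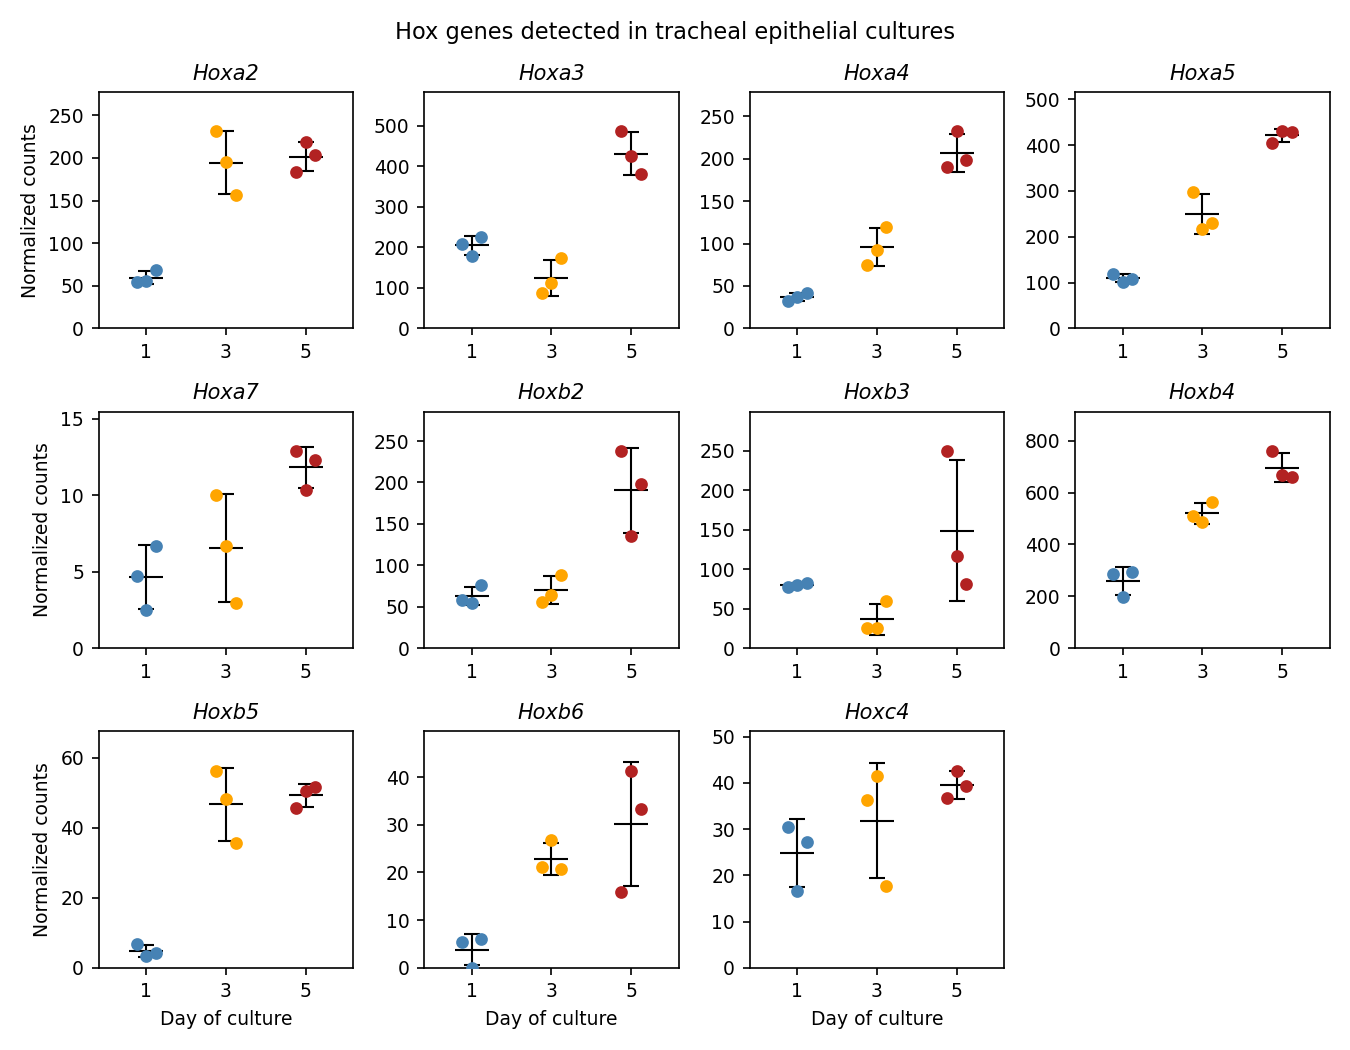
Normalized counts (linear axes from 0, a scale for each gene) of the 11 detected Hox genes by day of culture. Coloured points are the 3 libraries of a day, the dash is their mean and the bars are 1 SD. Hoxa4, Hoxa5 and Hoxb4 step up from day 1 to 3 to 5, while Hoxa3 and Hoxb3 are lowest on day 3.

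Each detected gene was tested between days with limma on log2(normalized counts + 1), and p-values were adjusted over all 17338 genes that passed the detection rule. A change is a difference on that scale, followed by its standard error (SE). From day 1 to day 3, 6 of the 11 Hox genes rose (Hoxa2, Hoxa4, Hoxa5, Hoxb4, Hoxb5 and Hoxb6), 2 fell (Hoxa3 and Hoxb3) and 3 did not pass (Hoxa7, Hoxb2 and Hoxc4). Of all genes tested, 36.1% rose and 37.0% fell in that comparison. From day 3 to day 5, 6 rose (Hoxa3, Hoxa4, Hoxa5, Hoxb2, Hoxb3 and Hoxb4) and 0 fell, beside 34.8% and 32.4% of all genes. Between day 1 and day 5, 9 were higher (all but Hoxb3 and Hoxc4) and 0 lower, beside 36.7% and 37.7% of all genes. Both zeros were also 0 at an unadjusted p under 0.05 in limma and by limma-voom on whole reads, and all 11 estimates were above 0 in each of these comparisons. The median change of the 11 was 1.02, 0.77 and 1.56 in the order given, beside 0.00, 0.06 and -0.06 over all genes tested. Comparisons that share a day share its libraries, so they are not independent of each other. Hoxb5, Hoxb6 and Hoxa7 were below 10 in every day 1 library and met the detection rule only through later days, so they had to be higher later. Hoxa7 was below 10 in every day 3 library too, so it had to be higher on day 5 than on day 3. Without Hoxb5, Hoxb6 and Hoxa7, a choice made after seeing the data, 4 of 8 rose and 2 fell from day 1 to day 3 (median 0.66). Of the same 8, 6 rose and 0 fell from day 3 to day 5 (median 0.95). Between day 1 and day 5, 6 of the 8 were higher and 0 lower (median 1.50).

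**Figure D3:**
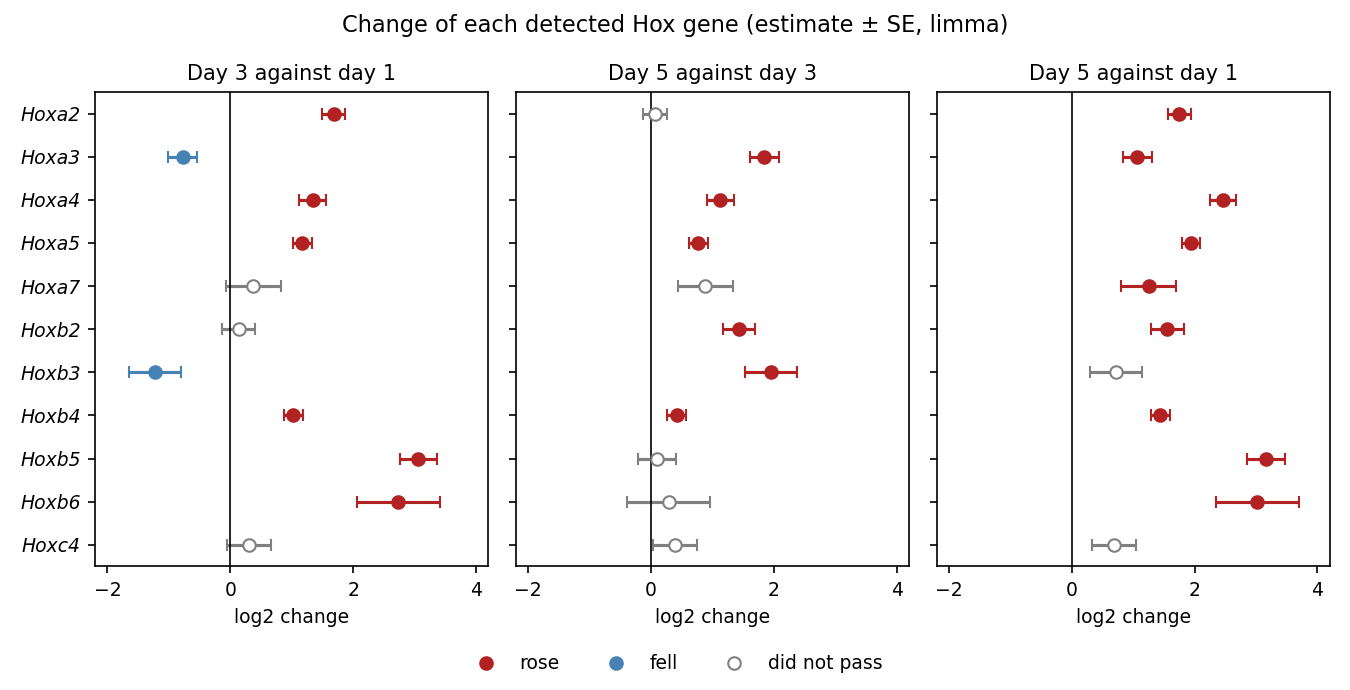
Estimated log2 change of the 11 detected Hox genes in the 3 comparisons, with bars of 1 SE from limma. Filled red points rose, filled blue points fell and open points did not pass at an adjusted p of 0.05. The 2 blue points stand in the first panel, and all points of the other panels lie to the right of 0.

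Among the anterior genes, Hoxa2, a regulator of hindbrain and neural crest, rose early and stayed high. Its values were 54.2, 55.6 and 68.5 on day 1, 231, 195 and 157 on day 3 and 183, 218 and 203 on day 5. Days 3 and 5 overlapped and both lay above every day 1 library. The first step was a rise of 1.68 (SE 0.19, adjusted p = 1.8e-05), and the second a change of 0.07 (SE 0.19, adjusted p = 0.77). After correction for length and GC content the first step was 1.40 (adjusted p = 4.0e-05).

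Its paralog Hoxb2 moved later. It had 58.3, 54.8 and 75.8 on day 1, 56.2, 64.3 and 88.8 on day 3 and 238, 136 and 198 on day 5. Days 1 and 3 overlapped (change 0.13, SE 0.26, adjusted p = 0.66), and every day 5 library was higher. From day 3 to day 5 it rose by 1.43 (SE 0.26, adjusted p = 8.0e-04). Exons of Hoxb3os on the opposite strand cover 27.3% of its exonic bases.

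Both detected genes of paralog group 3, known for roles in the pharyngeal organs and neck, were lowest on day 3. Hoxa3 had 209, 179 and 226 on day 1, 86.2, 111 and 173 on day 3 and 486, 425 and 380.3 on day 5. It fell by 0.78 (SE 0.23, adjusted p = 0.011) and then rose by 1.85 (SE 0.23, adjusted p = 6.5e-05), and day 5 was above day 1 by 1.07 (SE 0.23, adjusted p = 1.6e-03). With the trend on transcript length and GC content removed, the fall was larger (-1.27) and the difference between days 1 and 5 was 0.50 with an adjusted p of 0.066.

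Hoxb3 had 78.0, 79.7 and 83.1 on day 1, 25.0, 25.4 and 59.2 on day 3 and 249.7, 116 and 81.2 on day 5. Its day 1 libraries were the closest together of any day, and its day 5 libraries spread over the range from 81.2 to 249.7, with the lowest inside the range of day 1. It fell by 1.23 (SE 0.42, adjusted p = 0.022) and then rose by 1.96 (SE 0.42, adjusted p = 2.2e-03), while day 5 against day 1 was 0.72 (SE 0.42, adjusted p = 0.14). The fall was lost without day 1 replicate 2 or 3 or day 3 replicate 1 or 2 (adjusted p from 0.052 to 0.079), and day 5 against day 1 passed without day 5 replicate 3 (1.08, adjusted p = 0.043).

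Of the central genes, Hoxb4, known from blood stem cells among other tissues, had the highest mean level per length of the Hox genes on every day. Its libraries held 285, 198 and 295 normalized counts on day 1, 509.6, 487 and 565 on day 3 and 760.0, 667 and 661 on day 5, with no overlap between days. It rose by 1.02 from day 1 to day 3 (SE 0.16, adjusted p = 1.5e-04) and by 0.42 from day 3 to day 5 (SE 0.16, adjusted p = 0.035). The second step missed the threshold under 6 alternatives: without a filter on low counts (0.051), without a variance trend (0.055), and without day 3 replicate 1 or 2 or day 5 replicate 1 or 2 (adjusted p from 0.064 to 0.11). After correction for length and GC content the first step was 0.42 (adjusted p = 0.037) and the change from day 1 to day 5 was 0.85 in place of 1.44.

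Its paralog Hoxa4 had 31.9, 36.5 and 41.8 on day 1, 74.9, 92.4 and 119 on day 3 and 190.3, 232 and 198 on day 5. Each day lay wholly above the one before. The steps were 1.34 (SE 0.22, adjusted p = 2.4e-04) and 1.13 (SE 0.22, adjusted p = 1.1e-03). After correction for length and GC content, the first was 0.48 with an adjusted p of 0.068.

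The third paralog, Hoxc4, was the only detected gene outside the Hoxa and Hoxb clusters. It had 30.5, 16.6 and 27.3 on day 1, 36.2, 41.5 and 17.8 on day 3 and 36.7, 42.6 and 39.4 on day 5. All day 5 libraries were above all day 1 libraries, but the change of 0.69 did not pass (SE 0.36, adjusted p = 0.099). It passed without day 3 replicate 3 (adjusted p = 0.047), the lowest library of its day.

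Hoxa5, the member best known from the trachea and lung, rose at both steps. It had 119, 101 and 107 normalized counts on day 1, 299, 217 and 231 on day 3 and 404, 429.8 and 429.5 on day 5, with no overlap between days. The rises were 1.17 (SE 0.15, adjusted p = 4.5e-05) and 0.77 (SE 0.15, adjusted p = 1.2e-03), or 1.94 from day 1 to day 5 (adjusted p = 8.3e-07). These calls held under all 21 alternatives tried. After correction for length and GC content the first rise of Hoxa5 was smaller, at 0.82 (adjusted p = 4.0e-04).

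Its paralog Hoxb5 started near the floor, with 6.78, 3.32 and 4.24 on day 1 (21 reads in all), 56.2, 48.2 and 35.5 on day 3 and 45.6, 50.3 and 51.7 on day 5. Days 3 and 5 overlapped. The first step was 3.06 (SE 0.31, adjusted p = 8.6e-06), and the second 0.10 (SE 0.31, adjusted p = 0.79).

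Hoxb6, its 5' neighbour, was also below 10 in every day 1 library. Its values were 5.42, 0 and 6.06 on day 1 (18 reads), 21.2, 26.8 and 20.7 on day 3 and 15.9, 41.3 and 33.2 on day 5. It rose by 2.74 from day 1 to day 3 (SE 0.68, adjusted p = 3.9e-03). The change was 1.82 without day 1 replicate 2, the library with no read, and 1.42 with a pseudocount of 8, both past the threshold. From day 3 to day 5 the change was 0.29 (SE 0.68, adjusted p = 0.72), with overlapping libraries.

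Hoxa7, the detected gene with the highest paralog number, barely met the rule, with 4.75, 2.49 and 6.67 on day 1, 9.99, 6.69 and 2.96 on day 3 and 12.9, 10.3 and 12.3 on day 5, from 68 reads in all. Days 1 and 3 overlapped, and day 5 lay above both. Only the change from day 1 to day 5 passed, at 1.26 (SE 0.45, adjusted p = 0.026). It was lost under quantile normalization (0.43), after correction for length and GC content (0.63), without a filter (adjusted p = 0.063), and without day 1 replicate 2 or day 5 replicate 1 or 3 (adjusted p from 0.057 to 0.10).

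Over the courses as a whole, 3 genes rose at both steps (Hoxa4, Hoxa5 and Hoxb4), 3 rose at the first step only (Hoxa2, Hoxb5 and Hoxb6), 1 rose at the second step only (Hoxb2), 2 fell and then rose (Hoxa3 and Hoxb3), and 2 passed at neither step (Hoxa7 and Hoxc4). Of all genes tested, 36.1% rose and 37.0% fell at the first step, and 34.8% rose and 32.4% fell at the second. The share of all genes with each whole course was not counted. Both genes that fell first belong to paralog group 3. The fall of Hoxb3 was lost when some single libraries were left out. The second rise of Hoxb4 missed the threshold under some alternatives, and the first rise of Hoxa4 after correction for length and GC content. Opposite-strand exons cover 52.9% of the exonic bases of Hoxb3 and 25.4% of those of Hoxa3. Neighbouring genes did not move alike in each case: Hoxa2 rose at the step at which Hoxa3 beside it fell. In group 4, Hoxa4 and Hoxb4 rose at both steps and Hoxc4 passed at neither. The 2 genes of group 2 passed at different steps.

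Levels of different genes were compared as normalized counts per kilobase of exon, with GENCODE M21 lengths from 1594 to 6014 bases. On day 1 the order began with Hoxb4 at 101 ± 20.9 (SD, n = 3), followed by Hoxa5 at 58.1 ± 4.70 with no overlap between them or with Hoxa3 at 34.0 ± 4.01, which overlapped Hoxa2 at 33.5 ± 4.43. On day 3 Hoxb4 led at 203 ± 15.7, before Hoxa5 at 133 ± 23.3 and Hoxa2 at 110 ± 20.9, which overlapped. On day 5 Hoxb4 had 271 ± 21.6 and Hoxa5 224 ± 7.81, with no overlap between them, and Hoxa4 followed at 130 ± 14.0, overlapping Hoxa2 at 114 ± 9.84. Hoxa3 (71.5 ± 8.79), Hoxb2 (54.6 ± 14.8) and Hoxb3 (35.1 ± 20.9) came next, each overlapping its neighbour among the 3. Hoxb5, Hoxc4 and Hoxb6 lay between 15.3 and 17.7, and Hoxa7 was last at 4.12 ± 0.47.

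The clusters also hold noncoding transcripts, some of them antisense to Hox genes. Of 19 looked up, 4 met the detection rule, beside 30.6% of all genes in the table. All 4 rose from day 1 to day 3, beside 36.1% of all genes tested. From day 3 to day 5, 2 rose and 0 fell, beside 34.8% and 32.4%. Hotairm1 went from 75.3, 78.0 and 81.3 on day 1 to 449.7, 465 and 340.4 on day 3 and 332, 440.2 and 465 on day 5 (first step 2.39, SE 0.17, adjusted p = 1.3e-06). Hoxaas3 had 16.3, 19.9 and 22.4, then 126, 120.5 and 109.5, then 159.5, 176 and 218 (2.55, SE 0.21, adjusted p = 2.5e-06). Hoxaas2 had 27.8, 30.7 and 31.5, then 62.5, 102 and 107, then 148, 157 and 142 (1.52, SE 0.23, adjusted p = 1.5e-04). Hoxaas2 and Hoxaas3, antisense in the Hoxa cluster, also rose from day 3 to day 5, by 0.75 (Hoxaas2, adjusted p = 0.015) and 0.62 (Hoxaas3, adjusted p = 0.022). Hoxb3os had 36.6, 32.4 and 34.0, then 78.7, 68.3 and 52.3, then 74.3, 62.0 and 70.1 (0.91, SE 0.22, adjusted p = 3.4e-03). Hotairm1 and Hoxb3os did not pass from day 3 to day 5, with overlapping libraries and changes of -0.02 and 0.07. Of the other 15, Halr1 had 36 reads, Hoxb5os 34, Mir10a 19 and Gm53 4. No read was assigned to the remaining transcripts, among them Hotair, Hottip and Haglr. A further gene on the strand opposite to Hoxa3, 5730596B20Rik, was not among those looked up and is named after its values were seen, at 12.9, 8.30 and 12.1, then 51.2, 56.2 and 22.7, then 79.3, 91.6 and 106.

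**Figure D4:**
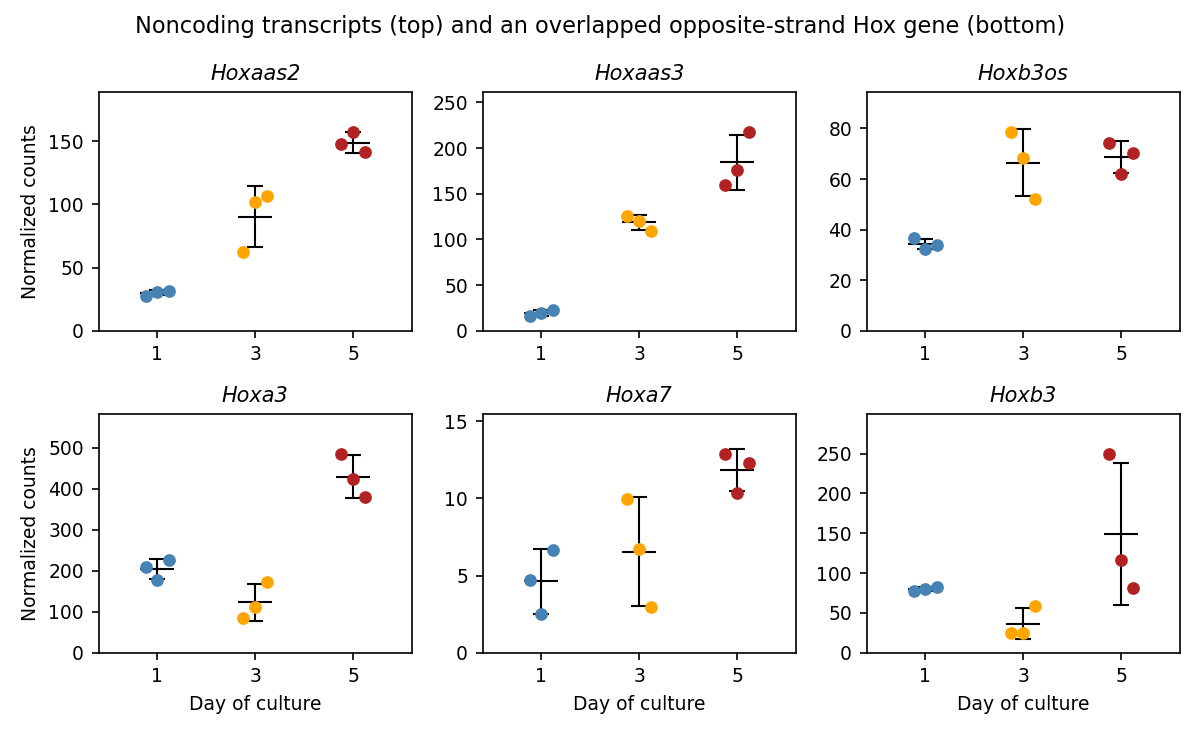
Normalized counts (linear axes from 0, a scale for each gene) by day of culture for 3 noncoding transcripts (top) and, below each, a Hox gene whose exons it overlaps on the other strand. Points are libraries, the dash is the mean and the bars are 1 SD. All 3 transcripts at the top are higher on day 3 than on day 1, whereas Hoxa3 and Hoxb3 below are lower. The libraries of Hoxa7 overlap between these days.

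Whether the authors' counting used strand is not given in the sources used here, and without it the reads of a gene and of its antisense partner cannot be told apart where their exons overlap. Opposite-strand exons cover 52.9% of the exonic bases of Hoxb3, 27.3% of Hoxb2, 25.4% of Hoxa3, 20.4% of Hoxa7, 16.0% of Hoxa4 and 3.59% of Hoxb5. The values of these 6 genes are therefore uncertain. These are shares of bases, and the share of reads concerned was not measured. Hoxa5, Hoxb4, Hoxb6, Hoxc4 and Hoxa2 have no such overlap, although 15.0% of Hoxa2 lies under Gm28308 on its own strand, which had 0 reads. At the first step Hoxa3 and Hoxb3 fell while Hoxaas2 and Hoxb3os over them rose. Hoxb2, also under Hoxb3os, and Hoxa7, under Hoxaas3, did not pass at that step (0.13 and 0.37). At the second step Hoxaas2 and Hoxa3 both rose (0.75 and 1.85), and Hoxb3 rose by 1.96 while Hoxb3os did not pass. Whether antisense reads played a part was not tested.

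Among 9 tested genes of 11 TALE partners, 3 rose and 2 fell from day 1 to day 3, 1 rose and 4 fell from day 3 to day 5, and 4 rose and 4 fell over the whole period (median change 0.02). Meis1 had 314 ± 23.1, 376 ± 67.7 and 766 ± 65.7 on days 1, 3 and 5 (change from day 1 to day 5 1.28, adjusted p = 1.1e-05), and Meis3 16.3 ± 2.81, 142 ± 40.2 and 102 ± 3.87 (2.58, adjusted p = 5.2e-06). Meis2 went the other way, from 861 ± 102 to 594 ± 99.0 and 429 ± 66.6 (-1.01, adjusted p = 1.5e-04), as did Pbx3, from 362 ± 37.4 to 292 ± 28.3 and 178 ± 23.3 (-1.02, adjusted p = 8.9e-05). Of all genes tested, 36.1% rose and 37.0% fell at the first step, 34.8% and 32.4% at the second, and 36.7% and 37.7% over the whole period, and the shares of the partners (4 of 9 each way) are near the last pair.

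Of 20 subunits of Polycomb complexes, which keep Hox clusters silent, 8 rose and 9 fell at the first step, 8 rose and 5 fell at the second, and 9 rose and 10 fell from day 1 to day 5 (median -0.33), beside 36.7% and 37.7% of all genes tested over that period. Suz12, a core subunit, fell from 3090.5 ± 86.7 to 865 ± 90.4 and 836 ± 190 (-1.91, adjusted p = 9.0e-07), and Phf19 from 164 ± 9.16 to 126 ± 26.1 and 31.0 ± 8.85 (-2.41, adjusted p = 8.7e-06). Phf1, of the same family as Phf19, rose from 127 ± 13.0 to 530.5 ± 12.7 and 1035 ± 135 (3.01, adjusted p = 1.7e-08), and Cbx6 from 2743 ± 254 to 10753 ± 1322 and 8296 ± 1174 (1.59, adjusted p = 1.7e-06). Of 10 trithorax-type regulators, which keep active Hox genes on, 1 rose and 8 fell, then 2 rose and 3 fell, and over the whole period 0 rose and 7 fell (median -0.59). All genes tested gave 36.1% and 37.0%, 34.8% and 32.4%, and 36.7% and 37.7% in the same order. Among them Rbbp5 went from 1021 ± 47.5 to 420.0 ± 25.2 and 472 ± 82.6 (-1.12, adjusted p = 1.6e-05) and Wdr5 from 2163 ± 81.1 to 1284 ± 43.3 and 1003 ± 61.3 (-1.11, adjusted p = 6.6e-07).

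Genes that make, carry, sense or degrade retinoic acid were tested for 14 of 18. At the first step 9 rose and 3 fell, at the second 4 rose and 6 fell, and over the whole period 7 rose and 4 fell (median 0.33). The shares of all genes tested were 36.1% and 37.0%, 34.8% and 32.4%, and 36.7% and 37.7%. Aldh1a1, an enzyme that makes retinoic acid, rose from 511 ± 194 to 1595 ± 119 and 43710 ± 1567 (6.50, adjusted p = 8.7e-09), and Dhrs3, which turns retinaldehyde back to retinol, from 206 ± 5.46 to 9991 ± 1364 and 6997 ± 1131 (5.07, adjusted p = 1.6e-09). Aldh1a3, a related enzyme, fell from 1272 ± 189 to 246 ± 8.06 and 213 ± 59.9 (-2.60, adjusted p = 5.3e-07). The carrier Crabp1 peaked on day 3, at 239 ± 34.5, between 21.5 ± 4.57 on day 1 and 1.56 ± 1.91 on day 5 (-3.40 from day 1 to day 5, adjusted p = 8.4e-05). The 3 Cdx genes, homeobox regulators of posterior Hox genes, had no read.

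Genes that flank the 4 clusters were matched for 17 of 18 and tested for 14. At the first step 3 rose and 6 fell, at the second 7 rose and 4 fell, and from day 1 to day 5 the counts were again 7 and 4 (median 0.28), beside 36.1% and 37.0%, 34.8% and 32.4%, and 36.7% and 37.7% of all genes tested. Lnpk, beside the Hoxd cluster, fell from 795 ± 43.4 to 240.5 ± 18.8 and 166 ± 17.8 (-2.26, adjusted p = 8.5e-08), and Cbx5, beside the Hoxc cluster, from 4689 ± 322 to 2075 ± 26.6 and 1594 ± 242 (-1.56, adjusted p = 4.6e-07). Ttll6 and Calcoco2, both on the Hoxb side, were at 0 on day 3 and had 2 reads and 1 read in all on day 1, against 139 ± 27.3 and 32.1 ± 2.37 on day 5, and met the detection rule only through that day. Evx1 and Evx2, the homeobox genes at the 5' ends of the Hoxa and Hoxd clusters, had no read.

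Hox genes are also expressed by mesenchymal cells, so markers of other cell types were read in the same libraries. Of 19 fibroblast markers 4 were detected (Dcn, Fn1, Twist2 and Vim). The whole list summed to 418 to 624 on day 1, 296 to 381 on day 3 and 320 to 367 on day 5. Tbx5 and Tcf21 had 0 reads, and Col1a1 and Col1a2 had 18 and 2 reads. Also below the rule, Col6a1 (means 0.23, 4.68 and 14.3), Col5a2 (0.23, 0.42 and 6.47), Col6a2 (1.31, 1.82 and 5.46) and Postn (0, 0 and 3.96) were highest on day 5. Pdgfra (6.40, 1.76 and 3.95), Prrx1 (3.05, 0.45 and 1.85) and Thy1 (1.49, 0 and 0) were highest on day 1. Fn1 carried most of the day 1 sum, going from 344 ± 101 to 59.99 ± 20.6 and 102 ± 31.9, and Twist2 was highest on day 3 (104 ± 13.4, 248 ± 46.3 and 34.3 ± 17.6). Vim had 24.5 ± 2.38, 2.59 ± 1.31 and 52.0 ± 3.997, and rose by 3.94 from day 3 to day 5 (adjusted p = 3.8e-06) and by 1.05 from day 1 to day 5 (adjusted p = 0.013). Dcn was at 0 in every library of days 1 and 3 and had 94.1, 119 and 124 on day 5. Endothelial, muscle and cartilage markers (5 of 14 detected) summed to 374 to 635, 175 to 313 and 191 to 250. Of 14 leukocyte markers 4 were detected, and the list summed to 266 to 301, 2183 to 2280 and 63491 to 81672, nearly all of it Lyz2 on day 5, a gene that airway epithelial cells can also express. Without Lyz2 the leukocyte sum was 266 to 301, 1623 to 1762 and 188 to 231. Most of that was Cd68, at 259 ± 16.7, 1612 ± 80.0 and 163 ± 16.9. All 4 detected markers (Cd68, Cd74, Itgam and Lyz2) rose from day 1 to day 3, beside 36.1% of all genes tested. Cd74, Itgam and Lyz2 met the detection rule only through later days. From day 3 to day 5, 1 rose and 2 fell, beside 34.8% and 32.4%. Below the rule, Csf1r had 0.73 ± 0.68, 0.33 ± 0.57 and 13.2 ± 3.66. Ptprc was at most 4.07 in any library, and Tyrobp had no read. The part of cells other than epithelium in the Hox values was not tested.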

How the data were processed

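Total RNA made into 9 libraries with a VAHTS kit was sequenced, per the labels. The authors used HISAT2 2.1.0, the GRCm39 build and DESeq2 1.36.0, per the submitters' processing notes. Which counter and annotation were used, and whether strand was, is not given in the sources used here. In the deposited table the authors give log2 values per gene and library, each the log2 of a read count over a size factor, with no pseudocount. The 297330 cells with an error text in place of a value were read as 0, and 359 repeated lines of 57107 were dropped. Returned to the linear scale, all values of up to 10000 reads were whole multiples of 1 read within 0.01 of a read, so reads could be recovered.

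Libraries were grouped by day from the sample titles, and none was left out. limma 3.58.1 in R 4.3.3 was fitted to log2(normalized counts + 1), with 1 mean per day over all 9 libraries, a variance trend and 6 residual degrees of freedom. Two-sided p-values were adjusted by Benjamini and Hochberg over 17338 genes with 10 or more normalized counts in 3 or more libraries, and called at 0.05. The fit was also run on simulated counts with the same spread setting for every gene and few changed genes, unlike these data. That run does not show how the fit performs here. Libraries of one day were further apart than sampling noise (chi-square per degree of freedom 8.71 or more). Lengths, overlaps and sequences came from GENCODE M21 and RefSeq on GRCm38, another build than the authors', matched by identifier or symbol. One gene that the rule found is not reported here. Every other Hox gene is accounted for, those called in a comparison are given by library, and of the other lists the largest rises and falls from day 1 to day 5 are named, up to 4 a list. The members and lists were chosen with earlier results of these data known. Alternatives covered the pseudocount, scaling, filter, zeros, voom weights, variance trend, days fitted, length and GC, a replicate block and each library left out.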

Additional observations from a re-analysis of the deposited data

How the results depend on the processing

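Across 21 alternatives, 652 of 684 values of single Hox genes kept their direction and side of the threshold, 18 fell below it, 3 passed it and 11 turned sign, none of which had passed. The 2 genes that fell from day 1 to day 3 were 1 to 2 when each library was left out; Hoxa3 alone was left without day 1 replicate 2 or 3 or day 3 replicate 1 or 2. At 5 normalized counts, 2 Hoxc genes counted as detected in place of 1, 7 Hoxb genes in place of 5, and 14 Hox genes in all in place of 11. Signs turned with the length and GC trend removed for Hoxa7 (-0.18), Hoxb2 (-0.25) and Hoxc4 (-0.32) from day 1 to day 3. After quantile normalization they turned for Hoxb2 from day 1 to day 3 (-0.0080) and for Hoxa2 (-0.13), Hoxb5 (-0.40), Hoxb6 (-0.26) and Hoxc4 (-0.14) from day 3 to day 5. Leaving out 1 library at a time gave Hoxb2 from -0.052 to 0.27 (day 1 to day 3), Hoxa2 from -0.080 to 0.20 and Hoxb5 from -0.082 to 0.24 (day 3 to day 5), each lowest without day 3 replicate 3. The cause was not tested. With the replicate block, 6 rose and 2 fell, 6 rose and 0 fell, and 9 rose and 0 fell in the 3 comparisons, as without it. Deviations from the day means correlated at -0.31 to 0.14 for libraries with the same number and at -0.15 to 0.36 for different numbers. With 3 libraries a day, these values cannot decide whether the numbers pair them. Depth limits the 27 untested genes, of which the highest value was 15.5.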
